A study of Mus musculus with 2 samples.

Results

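Cells in which more than 5% of all UMIs came from mitochondrially encoded genes are described here, in 2 single-cell RNA-seq libraries of mouse lung. A UMI (unique molecular identifier) is a random tag that marks 1 captured RNA molecule. The high-mitochondrial cells were taken from the raw count matrices as every cell with 200 to 4000 detected genes and more than 5% of its UMIs from genes whose symbol starts with mt-. There were 920 of them among 3032 cells in all, 813 in the normoxia library and 107 in the hypoxia library. The cells in the same gene range at or below 5%, called low-mitochondrial cells below, numbered 1348 and 689. The cells were thus selected on their measured mitochondrial share and gene number, and its values are given only to describe them.

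Both libraries were made from whole lungs of C57/B6 mice aged 2 to 4 months. The lungs were dissociated with enzymes, and beads against CD45, which marks leukocytes, and CD326, which marks epithelial cells, removed cells before capture in a 10x Genomics droplet system. The normoxia library is the control, and the hypoxia library came from mice kept in 10% oxygen for 3 weeks, a standard way to induce pulmonary hypertension in rodents. There was 1 library per condition, and the study names 3 wild-type animals for the hypoxia experiment without saying whether they were pooled. Condition and library cannot be told apart, cells of a library are not replicates, and no test was made. Every interval below is an exact 95% interval that covers counting error only.

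The mitochondrial genome encodes 13 proteins, all subunits of the respiratory chain and the ATP synthase, while the remaining subunits are encoded in the nucleus and translated in the cytosol. Single-cell studies commonly set an upper limit on the mitochondrial share, because a cell with a broken membrane can lose cytosolic mRNA while its mitochondria are retained. Cells rich in mitochondria, however, can exceed the same limit while intact. In the lung, type 2 alveolar epithelial cells (AT2), which make surfactant, are known for abundant mitochondria, whereas capillary endothelial cells (EC) are thin cells with few.

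The normoxia library held 2223 cells with 7630683 UMIs, and the hypoxia library 809 cells with 2685345 UMIs. Of the cells in the gene range, 37.6% (interval 35.6 to 39.7) were high-mitochondrial in normoxia and 13.4% (11.15 to 16.01) in hypoxia. A further 10 normoxia cells above 5% had under 200 genes and 12 had over 4000, and none in hypoxia did, so nearly every cell above the limit is described here. The libraries shared 1 barcode, which belonged to 1 high-mitochondrial cell.

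The limit of 5% cut through a continuous range. In normoxia 270 cells lay between 4% and 5%, with a median of 1421 UMIs, and 235 lay between 5% and 6%, with a median of 1229. In hypoxia the corresponding 56 and 41 cells had medians of 1398 and 1022 UMIs. The lowest share among the high-mitochondrial cells was 5.003% in normoxia and 5.026% in hypoxia, and their medians were 6.97% and 6.33%. Shares over 10% were seen in 145 normoxia and 17 hypoxia cells, shares over 20% in 18 and 3, and the highest values were 49.0% and 59.7%.

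The high-mitochondrial cells were shallow in both libraries. Their median was 1101 UMIs and 625 genes in normoxia, against 3453 UMIs and 1682 genes in the low-mitochondrial cells. In hypoxia the medians were 1074 UMIs and 565 genes against 2224 and 1179. Split into its parts, the median cell in normoxia carried 87 mitochondrial UMIs above the limit and 81 below it, while the non-mitochondrial UMIs were 1006 and 3356. In hypoxia the mitochondrial UMIs were 84 and 21, and the non-mitochondrial UMIs 990 and 2186. Thus, above and below the limit, normoxia cells held similar numbers of mitochondrial molecules and different numbers of all others, whereas hypoxia cells differed in both. Depth is part of the rule, since the mitochondrial share has all UMIs as its denominator, so these values describe the choice of cells.

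Among cells with at most 1000 UMIs, 362 of 614 (59.0%) were high-mitochondrial in normoxia and 45 of 206 (21.8%) in hypoxia. Over 4000 UMIs the counts were 56 of 621 (9.02%) and 4 of 218 (1.83%). The hypoxia share was lower at both depths. The 56 deep high-mitochondrial cells in normoxia included 20 AT2-like, 13 EC-like and 8 fibroblast-like cells, by the classes given below.

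**Figure D1:**
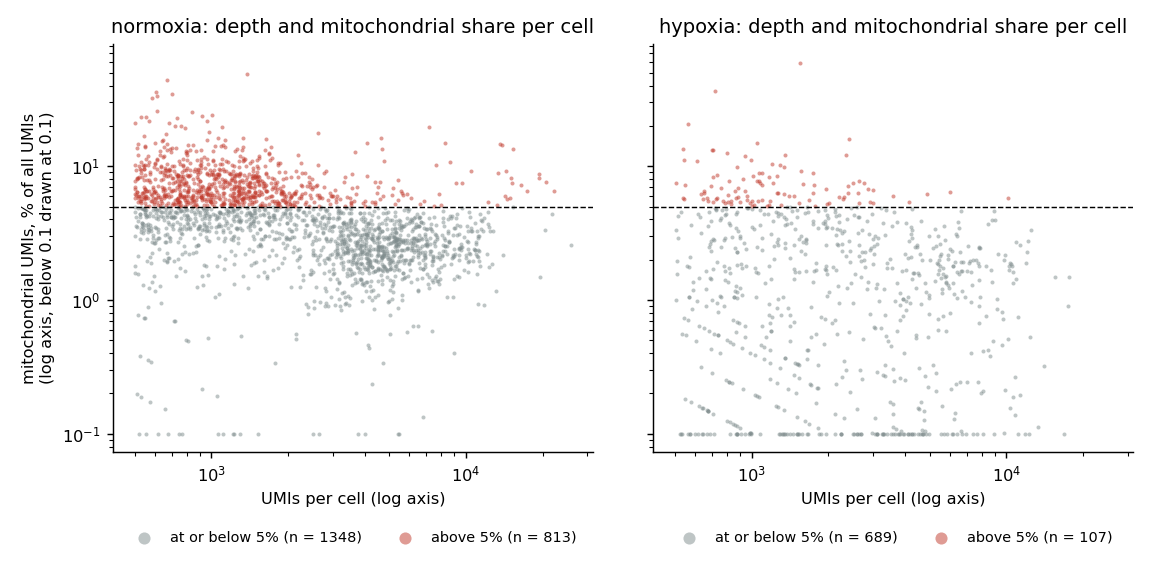
UMIs per cell (x, log axis) and mitochondrial UMIs as a percentage of all UMIs (y, log axis, values below 0.1 drawn at 0.1) for the normoxia (left) and hypoxia (right) libraries. Each point is 1 cell with 200 to 4000 genes, red above and grey at or below 5% (dashed line); the 813 and 107 red cells crowd at the shallow end, with medians of 1101 and 1074 UMIs.

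The 13 mitochondrial mRNAs made up the mitochondrial UMIs in similar proportions above and below the limit in normoxia. There mt-Atp6, a subunit of the ATP synthase, gave 18.8% of them in high-mitochondrial cells and 19.3% in low-mitochondrial cells. The cytochrome c oxidase subunits mt-Co3, mt-Co1 and mt-Co2 gave 17.2%, 13.4% and 13.1% against 17.0%, 12.2% and 13.2%. mt-Cytb, a subunit of complex III, gave 12.3% against 13.2%. The complex I subunits ranged from mt-Nd2 (7.27% against 7.06%) to mt-Nd6 (0.209% against 0.189%), the latter being transcribed from the opposite strand. In relative terms mt-Nd5 (1.52% against 1.31%) and mt-Nd4l (0.957% against 1.08%) differed most. In hypoxia mt-Nd4l gave 0.546% (0.424 to 0.694) against 0.851% (0.753 to 0.958), and mt-Cytb 13.01% (12.4 to 13.6) against 14.9% (14.5 to 15.3). Some of these genes share bases. mt-Atp8, at 0.506% above and 0.507% below the limit in normoxia, overlaps mt-Atp6 by the 43 bases chrM:7927-7969 (GRCm38, + strand), shown because reads there cannot be given to 1 gene, with the start codon of mt-Atp6 in capitals.
mt-Atp8 and mt-Atp6 overlap: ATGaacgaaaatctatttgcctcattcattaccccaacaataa

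To see which cell types were above the limit, all 2957 cells in the gene range were clustered together without the mitochondrial genes and without the genes of the comparison lists described below, and clusters were named from fixed marker lists as "X-like". EC-like cells made up 68.1% of the high-mitochondrial cells in normoxia (554 of 813) and 86.0% in hypoxia (92 of 107), against 73.0% and 89.0% of the low-mitochondrial cells. The share of EC-like cells above the limit was 36.0% (33.6 to 38.5) in normoxia and 13.05% (10.7 to 15.8) in hypoxia. All 12 EC markers, among them Cdh5, Pecam1 and Cldn5, which form endothelial junctions, were detected in these cells. Their summed level was 10606 CPM above the limit and 12945 CPM below it in normoxia, and 9025 and 13264 CPM in hypoxia. CPM here are UMIs summed over the cells, per 1000000 of their non-mitochondrial UMIs, so that the genes used by the rule do not enter the denominator.

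Among the named classes, epithelial cells had the highest shares above the limit in normoxia. AT2-like cells were above the limit in 21 of 28 cases (75%, 55.1 to 89.3), with a median of 14280 UMIs and a median share of 8.88%, so they were deep cells, unlike the EC-, fibroblast- and pericyte-like cells above the limit. All 12 AT2 markers were detected in them, and Sftpc, which encodes surfactant protein C, led with 190315 CPM. None of the 8 AT2-like cells in hypoxia was above the limit, an interval that reaches up to 36.9%. AT1-like cells, the flat epithelium of gas exchange, were above the limit in 46 of 85 cases (54.1%, 43.0 to 65.0) in normoxia and in 3 of 10 in hypoxia. Their markers were led by Hopx, a regulator of AT1 identity, at 6508 CPM. The intervals of AT2-like and AT1-like cells in normoxia overlapped each other, and both lay wholly above that of EC-like cells. These epithelial cells had passed the CD326 depletion, and their small number limits the precision.

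The mesenchymal classes did not stand apart from EC-like cells. Fibroblast-like cells were above the limit in 77 of 234 cases (32.9%, 26.9 to 39.3) in normoxia and in 6 of 30 in hypoxia. Their marker list summed to 36212 CPM above and 34383 CPM below the limit, with Gsn, an actin-severing protein, the most abundant and Lum, a collagen-binding proteoglycan, at 0 above it. Pericyte-like cells, the mural cells of capillaries, were above the limit in 22 of 71 cases (31.0%, 20.5 to 43.1) and in 4 of 12. All 11 pericyte markers were detected, with Pdgfrb, the receptor for platelet-derived growth factor B, at 5489 CPM above and 5853 CPM below. Of the platelet-like cells 13 of 39 and 0 of 6 were above the limit, of the lymphatic EC-like cells 4 of 15 and 0 of 3, and of the myofibroblast-like cells 2 of 18 in normoxia. The cells left unnamed were above the limit in 74 of 133 cases (55.6%, 46.8 to 64.2) in normoxia and 2 of 22 in hypoxia. They formed 2 clusters. The larger, led by Cdc42bpg, held 60 cells above and 39 below the limit in normoxia. It had 5 of 12 EC markers, with the fibroblast gene Dpt among its leading genes. The smaller, led by Igkc, held 14 and 20 in normoxia. Its leading genes were of leukocytes, both B cell (Ighm, Cd79a) and myeloid (Cybb, Tyrobp).

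**Figure D2:**
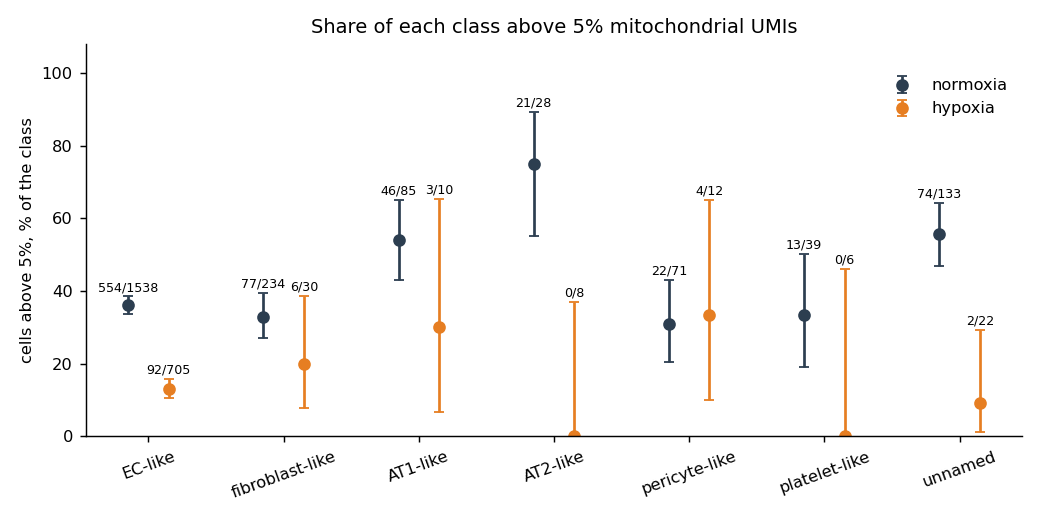
Cells above 5% mitochondrial UMIs as a percentage of each class (y), for the normoxia (dark) and hypoxia (orange) libraries; bars are exact 95% binomial intervals and the labels give cells above the limit over all cells of the class. In normoxia AT2-like (75%) and AT1-like (54.1%) cells lie above EC-like (36.0%), fibroblast-like (32.9%) and pericyte-like (31.0%) cells.

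Among EC subtypes in normoxia, aerocyte capillary EC, which lie against the alveolus, were above the limit in 83 of 211 cases (39.3%, 32.7 to 46.3) and venous EC in 43 of 110 (39.1%, 29.9 to 48.9). General capillary EC were lower at 187 of 789 (23.7%, 20.8 to 26.8), and arterial EC were lowest at 5 of 36 (13.9%, 4.67 to 29.5), although the intervals of the last pair overlap. A cluster led by Plvap was counted as general capillary, but its 10 leading genes held 2 genes of the general capillary list and 2 of the arterial list, and 6 of its 155 normoxia cells were above the limit. Without it, a setting chosen after seeing the data, the general capillary share was 28.5% (25.1 to 32.2), whose interval overlaps that of venous EC. In hypoxia the counts were 7 of 71, 0 of 22, 33 of 426 and 2 of 10. Many EC-like cells above the limit carried no subtype, since they fell in clusters that were given none. These clusters were led by Stmn1, Gm26870, C130074G19Rik and Kif1c. They held 94, 73, 50 and 19 such cells in normoxia and 2, 16, 0 and 32 in hypoxia. Below the limit the same clusters held 98, 26, 26 and 6 cells in normoxia. The subtype shares leave all untyped cells out, and in normoxia most of these lay above the limit.

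Several cell types were found as a deep cluster and a shallow cluster, and the cells above the limit sat in the shallow one. With both libraries counted together, aerocytes formed a deep cluster led by Ednrb and Apln (median 7259 UMIs), of which 1 of 123 cells was above the limit (0.813%). They also formed a shallow cluster rich in Malat1 (1684 UMIs, 75% above the limit, Malat1 15.7% of non-mitochondrial UMIs) and another nearly without it (932 UMIs, 47.7%, Malat1 0.237%). Venous EC likewise split into a cluster with 4969 UMIs and 9.33% above the limit and one with 1264 UMIs and 63.2%. Fibroblasts split into a cluster with 7262 UMIs, 6.73% and Malat1 at 7.66%, and one with 1083 UMIs, 47.5% and Malat1 at 0.382%. Malat1 is a long non-coding RNA that stays in the nucleus, and it was not among the genes used for clustering.

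The EC-like cells above and below the limit therefore came largely from different clusters. In normoxia those above it were most numerous in a general capillary cluster led by Gm12758 (104 cells) and in untyped clusters led by Stmn1 (94), Gm26870 (73) and C130074G19Rik (50). Those below it were most numerous in clusters led by Gna14 (156), Plvap (149) and Ifit1 (128). The clusters led by Gm12758 and Stmn1 also held 78 and 98 of the cells below it. Values within the EC-like class, given next, include this difference, and the same values were also taken in cells of matched depth and within single clusters.

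Malat1 divided the EC-like cells above the limit into separate groups. In normoxia 317 of 554 (57.2%, 52.98 to 61.4) had under 1% of their non-mitochondrial UMIs from Malat1, 61 (11.01%) had 1% to 10%, and 176 (31.8%, 27.9 to 35.8) had over 10%. Among the 984 low-mitochondrial EC-like cells the middle range was the most common, with 263 (26.7%), 612 (62.2%) and 109 (11.1%) cells. Only 7 of the high-mitochondrial cells lay between 0.5% and 1.5%, and 42 lay between 8% and 12%, so the lower limit falls in a gap and the upper one does not. In hypoxia the 92 cells divided into 68 (73.9%), 12 (13.04%) and 12 (13.04%), and the 613 low-mitochondrial cells into 337 (55.0%), 210 (34.3%) and 66 (10.8%).

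The cells between the extremes were the deep ones. Above the limit in normoxia, the median was 828 UMIs in cells with under 1% Malat1, 2048 in the middle range and 1198 in cells with over 10%. Cells with 500 to 2000 non-mitochondrial UMIs, a window of matched depth, divided in a similar way on both sides of the limit. There, 60.3% and 33.3% of the high-mitochondrial cells were under 1% and over 10%, and 65.2% and 27.1% of the low-mitochondrial cells. In hypoxia the values in the window were 81.4% and 17.1% against 77.7% and 16.4%. In the window the intervals of these shares overlapped across the limit in each library.

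**Figure D3:**
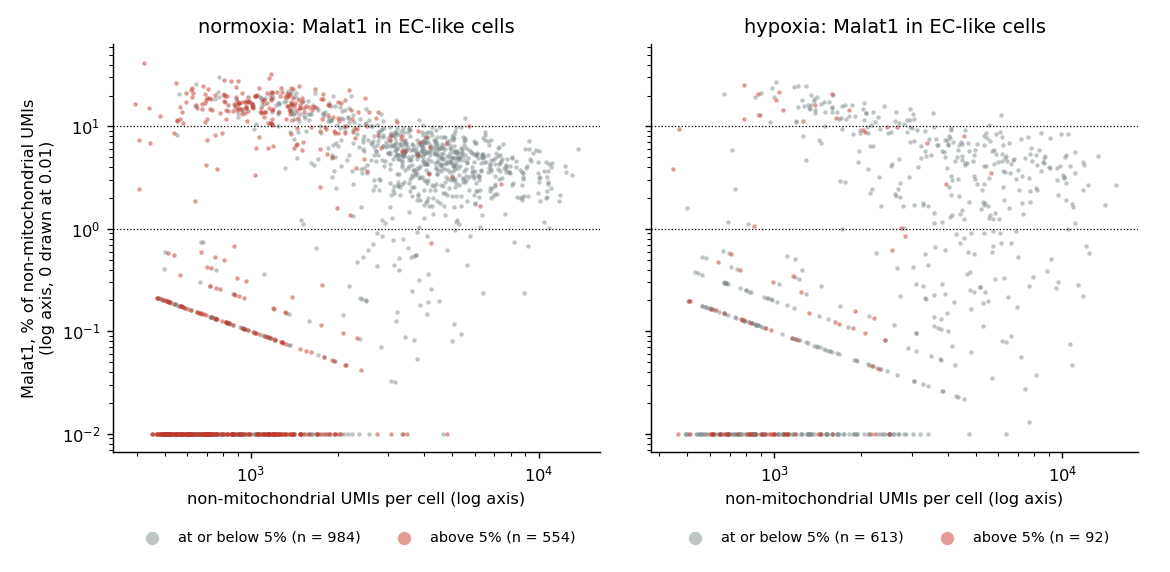
Malat1 as a percentage of non-mitochondrial UMIs (y, log axis, 0 drawn at 0.01) against non-mitochondrial UMIs per cell (x, log axis) in EC-like cells of the normoxia (left) and hypoxia (right) libraries. Each point is 1 cell, red above and grey at or below 5% mitochondrial UMIs, with dotted lines at 1% and 10%; of the 554 red cells on the left, 317 lie under 1% and 176 over 10%.

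Other genes differed between these groups of cells. Per 1000000 non-mitochondrial UMIs without Malat1, the ribosomal protein genes summed to 193456 CPM in high-mitochondrial EC-like cells with under 1% Malat1 and to 32647 CPM in those with over 10%, in normoxia. The nuclear respiratory chain subunits were 20800 and 6364 CPM. The immediate-early genes went the other way, with 6399 and 20054 CPM. mRNAs of cytosolic and mitochondrial housekeeping were therefore highest where Malat1 was lowest. Low-mitochondrial cells with over 10% Malat1 had 34189 CPM of ribosomal protein and 19941 CPM of immediate-early genes in normoxia, near the values above the limit, while their MHC class II genes were at 1985 CPM against 1417 CPM above the limit. In hypoxia the cells with over 10% Malat1 had 50439 CPM of ribosomal protein genes above the limit and 37635 CPM below it. Their immediate-early genes were also higher above the limit, at 12820.5 CPM (10863 to 15028) against 9646 CPM (9062 to 10258), in 12 and 66 cells. Low-mitochondrial cells with under 1% Malat1 in normoxia had 129693 CPM of ribosomal protein and 26740 CPM of immediate-early genes.

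Fibroblast-like and AT1-like cells above the limit were mostly poor in Malat1 in normoxia. Of the fibroblast-like cells 68 of 77 (88.3%) had under 1%, against 66 of 157 (42.0%) below the limit, and in the window of matched depth all 58 and all 48 cells did. Of the AT1-like cells 42 of 46 (91.3%) had under 1%, against 34 of 39 (87.2%) below the limit. Pericyte-like cells resembled EC-like cells, with 14 of 22 under 1% and 7 over 10%. AT2-like cells were mostly in the middle range, with 4 of 21 under 1% and 3 over 10%.

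Gene levels were next compared between high- and low-mitochondrial EC-like cells of the same library, as ratios of CPM. Among the 8053 genes with at least 50 UMIs in normoxia, 123 were more than 2-fold higher above the limit (1.53% of the genes tested) and 328 more than 2-fold lower (4.07%). The 95% interval lay wholly past 2-fold for 14 higher (0.174%) and 27 lower (0.335%) genes. In hypoxia, with 6104 genes and fewer cells, 216 were higher (3.54%) and 1133 lower (18.6%), of which 14 (0.229%) and 26 (0.426%) had intervals wholly past 2-fold. The median gene tested had a log2 ratio of -0.09 in normoxia and -0.22 in hypoxia. In hypoxia this depends on the genes counted. Scaling to the median of genes with at least 50 UMIs on each side of the limit lowered the nuclear-retained ratio from 1.03 to 0.908. The median of those genes thus lay above 1, and the level of a typical gene in hypoxia is not settled. In the window of matched depth, 21 of 2928 genes in normoxia were more than 2-fold higher (0.717%) and 15 lower (0.512%), and the counts in hypoxia were 22 (1.71%) and 84 (6.52%) of 1288.

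Over cells of all depths, immediate-early genes had the lowest ratio of the lists compared in EC-like cells, in both libraries. These genes, among them the AP-1 subunits Fos and Jun and the zinc finger factor Egr1, are transcribed within minutes of stimulation and are known to be induced by enzymatic dissociation of tissue. Their sum in normoxia was 11515 CPM above the limit and 28803 CPM below it, a ratio of 0.400 (0.390 to 0.409). Of the 24 genes on the list 22 had enough UMIs, 17 of which were more than 2-fold lower and none higher, with a median log2 ratio of -1.34. Of all genes tested in normoxia, 4.07% were more than 2-fold lower and 1.53% higher. In hypoxia the sums were 4549 and 10892 CPM and the ratio was 0.418 (0.383 to 0.454). There 14 of 18 genes were more than 2-fold lower, where 18.6% of all genes tested were. Egr3 in normoxia (0.963) and Fosb in hypoxia (1.41) did not follow, the latter on 9 UMIs of which 88.9% were in 1 cell.

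Fos stood at 398 CPM above and 1521 CPM below the limit in normoxia, a ratio of 0.262 (0.230 to 0.296). Egr1 stood at 759 and 2627 CPM (0.289, 0.263 to 0.316), and Junb, another AP-1 subunit, at 890 and 2510 CPM (0.355). Ier3, a regulator of cell survival, stood at 837 and 2584 CPM (0.324), and Socs3, an inhibitor of cytokine signalling, at 292 and 1031 CPM (0.283). All of these were lower above the limit in hypoxia too, with Egr1 at 171 and 466 CPM, Fos at 162 and 353 CPM and Ier3 at 227 and 858 CPM.

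Much of this difference was shared with depth. In cells with 500 to 2000 non-mitochondrial UMIs the immediate-early ratio was 0.776 (0.747 to 0.807) in normoxia and 0.792 (0.702 to 0.891) in hypoxia, still below 1. In these cells 0 of 18 and 4 of 13 genes were more than 2-fold lower, where 0.512% and 6.52% of all genes tested were. Fos was then at 0.845 (0.668 to 1.07) and Jun at 0.666 (0.609 to 0.729) in normoxia, and in hypoxia Fos was at 1.64 (0.817 to 3.10). Within single EC clusters, in the 7 pairs of cluster and library with at least 20 cells on either side, the ratio ranged from 0.635 to 1.35, with 4 intervals below 1 and 1 above. The value above 1, at 1.35 (1.11 to 1.63), was that of the only hypoxia pair, the cluster led by Kif1c with 32 and 68 cells.

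Promoters of 19 of the 24 immediate-early genes were matched in RefSeq (GRCm38.p6). TGACGT, the core of the cyclic AMP response element, was searched on both strands in the 250 bases before each start and was present in 5 of the 19 (26.3%), against 6.56% of all 27025 promoters of that length. The CArG box, bound by serum response factor, was present in 1 of 19 (5.26%) against 1.40%. A match describes letters in the window and not a bound site. The windows below, at chr12:85473799-85473854 (+ strand) for Fos, chr1:191183334-191183366 (- strand) for Atf3, chr1:134079289-134079346 (- strand) for Btg2 and chr7:28379252-28379311 (- strand) for Zfp36, show the motif in capitals with its flanks, since Fos, Atf3 and Zfp36 were among the lowest genes above the limit in EC-like cells and Btg2 in AT1-like cells. The motif begins 66, 8, 166 and 58 bases before the start. In Atf3 it is read as its reverse complement, in Btg2 both strands match and overlap, and in Zfp36 the capitals mark the CArG box.
Fos: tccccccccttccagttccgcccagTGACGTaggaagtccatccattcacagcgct
Atf3: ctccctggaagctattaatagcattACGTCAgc
Btg2: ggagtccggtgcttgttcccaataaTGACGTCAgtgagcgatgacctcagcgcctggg
Zfp36: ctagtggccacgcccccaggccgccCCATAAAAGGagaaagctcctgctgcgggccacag

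Stress-response lists were lower to a lesser degree. Heat shock and chaperone genes had a ratio of 0.750 (0.724 to 0.776) in normoxia, with 4 of 16 more than 2-fold lower, namely Hspb1, Hspa1a, Dnajb1 and Dnajb4, where 4.07% of all genes tested were. In hypoxia the ratio was 0.810 (0.759 to 0.863), with 4 of 16 lower where 18.6% of all genes were, and Hspb1, a small heat shock protein, stood at 284 CPM above and 1148 CPM below the limit. Endoplasmic reticulum chaperones were at 0.817 and 0.768, and the list of p53 targets and cell death genes at 0.614 (0.569 to 0.662) and 0.717 (0.597 to 0.855). In normoxia that list was led by Cdkn1a, an inhibitor of the cell cycle, which was the one gene of it more than 2-fold lower (234 against 691 CPM, ratio 0.339). Targets of the integrated stress response were at 0.684 and 0.705, with 6 and 4 of 18 genes measured. None of these lists was higher above the limit over cells of all depths. Ratios at matched depth follow in the same order. In normoxia they were 0.882 (0.831 to 0.936), 0.945 (0.870 to 1.03), 0.860 (0.756 to 0.979) and 1.17 (0.889 to 1.54). In hypoxia they were 0.952 (0.865 to 1.05), 0.931 (0.808 to 1.07), 0.935 (0.717 to 1.21) and 1.19 (0.706 to 1.92), with every interval including 1.

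Ribosomal protein genes were higher above the limit as a group. Their sum was 114648 CPM against 81519 CPM in normoxia, a ratio of 1.41 (1.40 to 1.42), and 160458 CPM against 94206 CPM in hypoxia, a ratio of 1.70 (1.68 to 1.73). Of the 82 genes measured, 0 in normoxia and 4 in hypoxia were more than 2-fold higher, where 1.53% and 3.54% of all genes tested were. The difference was thus broad and small for each gene. The interval lay wholly above 1 for 77 of 82 in normoxia and 79 of 82 in hypoxia, and for none wholly below, where 9.14% and 6.34% of all genes tested lay wholly above 1 and 13.1% and 9.83% wholly below. Among the highest in normoxia were Rps12 (1.68) and Rpl26 (1.63), and in hypoxia Rpl13a (2.25) and Rps23 (2.17). Rps27l, a paralog of Rps27 that p53 induces, was the lowest in normoxia at 0.886. In cells of matched depth the ratios of the sums were 1.17 (1.15 to 1.18) and 1.35 (1.33 to 1.38), and within the 7 EC clusters they ranged from 0.879 to 1.21, with 5 intervals above 1 and 1 below.

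The 74 nuclear-encoded subunits of the respiratory chain measured had a summed ratio of 0.964 (0.943 to 0.986) in normoxia, at 13734 against 14243 CPM, and 1.03 (0.987 to 1.08) in hypoxia. More than 2-fold lower were 1 subunit in normoxia, Uqcrfs1 of complex III (0.420), and 4 in hypoxia, and none was higher, where 4.07% and 18.6% of all genes tested were more than 2-fold lower. The median log2 ratio was -0.11 in normoxia, near that of all genes tested, and -0.08 in hypoxia, higher than that of all genes tested. Genes of mitophagy and mitochondrial quality control had summed ratios of 0.997 (0.923 to 1.08) and 1.01 (0.865 to 1.17). Within that list Mfn2, which fuses mitochondria, stood at 42.8 against 15.8 CPM in normoxia (2.72, 1.66 to 4.35), and Fundc1, a receptor for mitophagy, at 16.8 against 35.7 CPM (0.471, 0.229 to 0.872), each on under 30 UMIs above the limit.

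Glycolysis genes and targets of hypoxia had ratios of 0.919 (0.866 to 0.975) and 0.877 (0.791 to 0.970), and of 0.956 (0.866 to 1.06) and 0.836 (0.716 to 0.971) at matched depth. The cytoskeletal and cytosolic housekeeping genes summed to similar levels, at 0.983 and 1.12, but single genes differed. In normoxia Actb, cytoplasmic actin, was at 0.688, whereas Tpt1 and Fth1, the ferritin heavy chain, were both at 1.45. The genes of MHC class II, which present antigen, were at 0.644 (0.602 to 0.689) and 0.690 (0.642 to 0.741). At matched depth they were at 0.841 (0.753 to 0.940) and 0.729 (0.654 to 0.811). In hypoxia this was below the immediate-early ratio in the window, 0.792. Within the 7 EC clusters the MHC class II ratio ranged from 0.446 to 1.32, with 3 intervals below 1 and 1 above.

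**Figure D4:**
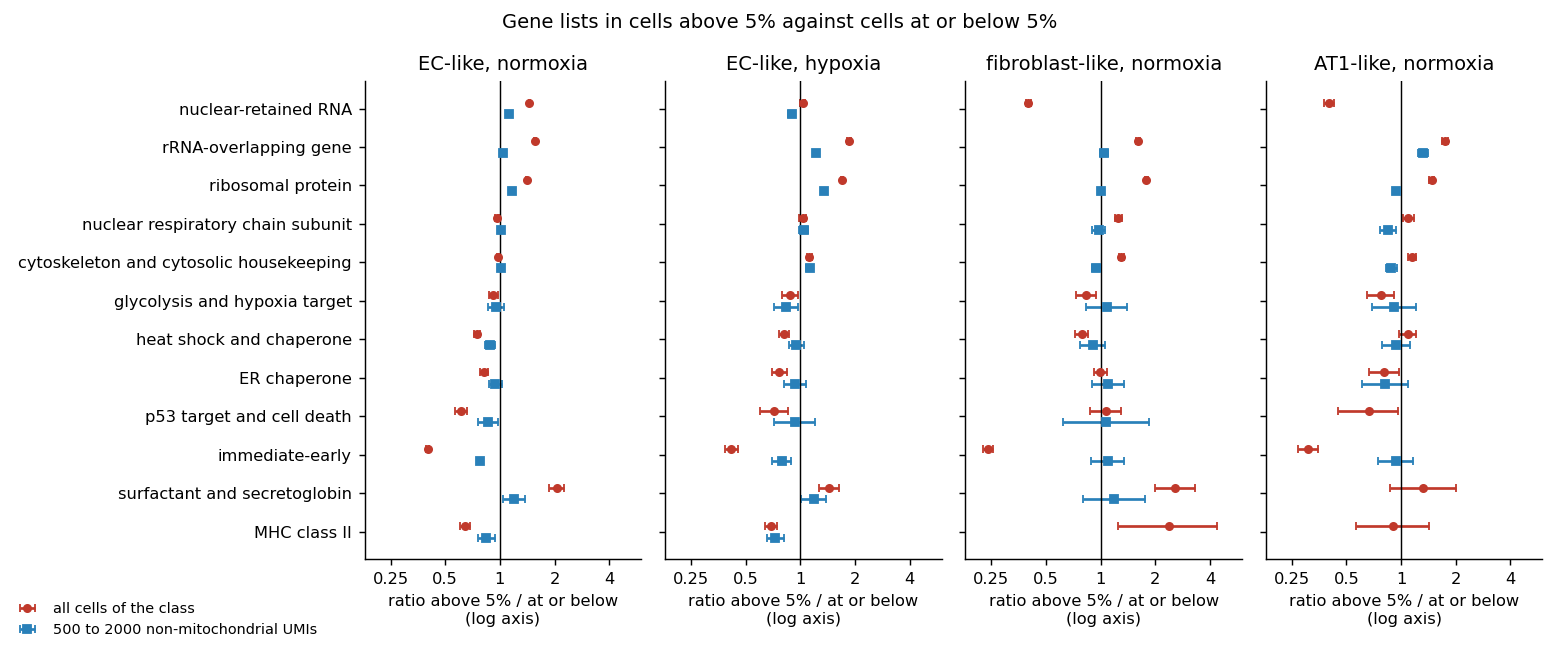
Summed level of each gene list in cells above 5% mitochondrial UMIs divided by that in cells at or below 5% of the same class and library (x, log axis, bars are 95% intervals), for all cells (red circles) and for cells with 500 to 2000 non-mitochondrial UMIs (blue squares); sums under 50 UMIs are not drawn. The immediate-early genes lie at 0.400, 0.418, 0.240 and 0.307 in the 4 panels and move toward 1 in the window, and the nuclear-retained RNA of AT1-like cells in the window (49.0) is off the axis and rests on 4 of 35 cells with at least 1% Malat1.

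RNAs of nuclear or ribosomal DNA origin were higher above the limit in normoxia. The nuclear-retained list, nearly all Malat1, was at 67570 against 46436 CPM (1.46, 1.44 to 1.47) in normoxia and at 35216 against 34052 CPM (1.03, 1.00 to 1.07) in hypoxia. The hypoxia value was below 1 under 5 of the 7 alternatives, at 0.244 to 0.968, and within the 7 EC clusters the ratio ranged from 0.244 to 10.6, with 5 intervals above 1 and 2 below. Kcnq1ot1, a nuclear antisense RNA of the imprinted Kcnq1 locus, was at 413 against 140 CPM (2.94, 2.53 to 3.42) and at 252 against 116 CPM (2.18, 1.45 to 3.18). Neat1, the RNA scaffold of paraspeckles, was at 422 against 392.5 CPM in normoxia, with an interval of the ratio from 0.942 to 1.22. The 3 genes at the ribosomal DNA fragment on chromosome 17 summed to 51175 against 32748 CPM (1.56, 1.54 to 1.58) in normoxia and 56695 against 30556 CPM (1.86, 1.81 to 1.90) in hypoxia. Gm42418 (chr17:39846958-39848788) and AY036118 lie within an annotated rRNA gene (chr17:39846353-39848827), and their reads and those of the rRNA gene cannot be told apart by position. In the window the rRNA-overlapping ratio was 1.04 (1.02 to 1.07) in normoxia and 1.22 (1.18 to 1.26) in hypoxia.

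Among single genes, Gm26870 was higher above the limit in both libraries. It was at 1380 against 465 CPM in normoxia (2.97, 2.73 to 3.22) and at 5158 against 1996 CPM in hypoxia (2.58, 2.37 to 2.81), and in the window at 0.980 and 1.23. Gm10800 was at 70.4 against 21.9 CPM in normoxia (3.21, 2.18 to 4.67) and at 0.811 (0.506 to 1.31) in the window. Both are annotated on different chromosomes, but their transcripts share sequence, since 57.1% of the 15-base words in the reverse complement of Gm10800 occur in Gm26870, and a transcript of Gm26870 repeats itself at a spacing of 234 bases with 95.9% identity. Reads of the 2 loci and of related repeats elsewhere cannot be told apart on this basis. The repeat unit is printed because it shows the sequence that the transcripts share, at chr9:3038077-3038310 (GRCm38, - strand), with the longest run of 42 bases shared with the reverse complement of Gm10800 in capitals.
Gm26870 repeat unit: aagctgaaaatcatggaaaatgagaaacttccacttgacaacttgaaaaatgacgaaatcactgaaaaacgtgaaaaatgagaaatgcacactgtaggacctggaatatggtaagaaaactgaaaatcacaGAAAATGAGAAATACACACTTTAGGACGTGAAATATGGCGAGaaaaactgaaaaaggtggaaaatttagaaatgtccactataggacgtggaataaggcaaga

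Other genes with large ratios in normoxia included non-coding and protein-coding transcripts. The non-coding RNAs Pard3bos1 (56.6 against 12.1 CPM, 4.68) and Gm29237 (113 against 29.0 CPM, 3.91) came first, and were at 1.31 and 1.37 in the window. Cenpb, a centromere protein, was at 237 against 80.7 CPM (2.94, 2.40 to 3.58), and at 1.75 (1.22 to 2.57) in the window. Cyb5r3, a cytochrome b5 reductase, was at 399 against 161 CPM (2.48), and at 1.87 (1.42 to 2.48) in the window. Cenpb and Cyb5r3 also led some of the shallow EC clusters. In hypoxia Kif1c, a kinesin motor, was at 276 against 62.4 CPM (4.43, 2.94 to 6.50), Kctd10 at 552 against 164 CPM (3.37) and Upf2, a factor of nonsense-mediated decay, at 219 against 60.5 CPM (3.63), and all 3 stayed above 1 with their intervals in the window. Several others rested on 1 cell, since 56.0% of the UMIs of Plac8 and 53.3% of those of Sftpb came from a single cell, without which the ratios of 3.50 and 4.75 were 1.60 and 2.23.

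RNAs of AT2 cells and of blood cells were also higher in EC-like cells above the limit. The fibroblast marker list was lower above it in normoxia, at 176 against 308 CPM, and higher in hypoxia, at 219 against 76.4 CPM. Sftpc, an AT2 product, was at 330 against 128 CPM in normoxia (2.58, 2.19 to 3.04) and at 666 against 209 CPM in hypoxia (3.18, 2.48 to 4.04). The list of surfactant and secretoglobin genes was at 2.05 (1.87 to 2.25) and 1.43 (1.26 to 1.63), and the haemoglobin genes at 2.87 (2.04 to 4.01) and 2.61 (1.80 to 3.68). The 12 AT2 markers summed to 506 CPM above and 220 CPM below the limit in normoxia and to 1015 and 350 CPM in hypoxia. Igkc, an immunoglobulin light chain, was at 88.7 against 29.3 CPM in normoxia. At matched depth the surfactant list was at 1.20 (1.04 to 1.38) and 1.19 (1.01 to 1.39), and the haemoglobin genes were at 1.20 (0.724 to 2.02) and 1.07 (0.687 to 1.62), with intervals that include 1. There Sftpc was at 1.01 (0.801 to 1.27) in normoxia and 1.47 (1.08 to 1.98) in hypoxia. The part of free RNA in the droplets, or of doublets, in these values was not tested.

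Of the named genes lowest above the limit in hypoxia, Fibin, an aerocyte gene, had 0 UMIs above the limit and 228 below it, and Cxcl9, an interferon-induced chemokine, 0 and 188. With 3 counts over these cells together taken as the limit for 0, these genes were at most 24.4 CPM above the limit against 110 and 90.9 CPM below it, so at least 4.52-fold and 3.73-fold lower. The aerocyte markers Car4 (179 against 738 CPM, 0.242), Pmp22 (89.4 against 423 CPM, 0.211) and Igfbp7 (317 against 1113 CPM, 0.285) were also lower, and aerocytes made up 7 of the 92 EC-like cells above the limit and 64 of the 613 below it. In the window Car4 was at 0.728 (0.391 to 1.27) and Igfbp7 at 0.954 (0.629 to 1.41).

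The EC-like cells varied along the mitochondrial share. In normoxia the immediate-early genes stood at 34146 CPM in cells with 0 to 2.5% mitochondrial UMIs, at 23059 from 2.5% to 5%, at 12426 from 5% to 7.5%, at 10539 from 7.5% to 10%, at 9049 from 10% to 20% and at 3702 above 20%. The decline thus began below the limit. The nuclear-retained list went from 45185 and 47781 CPM below the limit to 59502, 76087, 91450 and 109113 CPM above it in normoxia. In hypoxia it showed no such order, with 32260 and 42508 CPM below the limit and 33634, 34842, 51523 and 17707 CPM above it. Ribosomal protein genes were highest between 7.5% and 10%, at 121680 CPM, and were back to 94490 and 64516 CPM in the last bins. The median depth went from 4137 UMIs in the first bin to 614 in the last. The last bin held 11 cells. In hypoxia the bins held 470, 143, 62, 18, 10 and 2 cells, and the immediate-early genes stood at 11458, 8219 and 5129 CPM in the first 3.

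**Figure D5:**
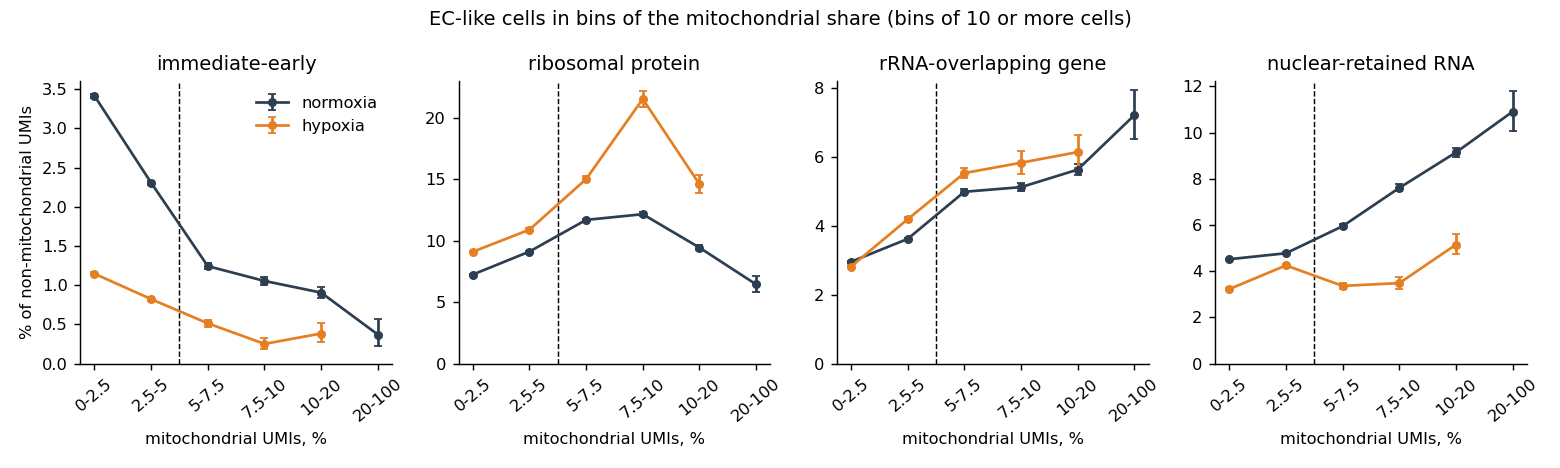
Summed level of 4 gene lists in EC-like cells (y, percentage of non-mitochondrial UMIs) in bins of the mitochondrial share (x, percent) for the normoxia (dark) and hypoxia (orange) libraries; bars are exact 95% intervals, the dashed line marks 5% and bins under 10 cells are left out. Immediate-early genes decline over the whole range in normoxia, from 34146 to 3702 CPM (10000 CPM are 1%), and ribosomal protein genes are highest between 7.5% and 10% in both libraries, a bin of 18 cells in hypoxia.

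Fibroblast-like cells above the limit in normoxia shared the direction of the immediate-early and ribosomal protein lists with EC-like cells. Of 3213 genes tested, 91 were more than 2-fold higher (2.83%) and 405 lower (12.6%). The immediate-early ratio was 0.240 (0.224 to 0.256), with 18 of 21 genes more than 2-fold lower, among them Egr1 (390 against 3098 CPM), Fos (707 against 4493 CPM) and Junb (258 against 2145 CPM). The ribosomal protein ratio was 1.78 (1.75 to 1.81), with 9 of 81 genes more than 2-fold higher. The nuclear respiratory chain subunits were at 1.25 (1.20 to 1.31), and the nuclear-retained list at 0.400 (0.387 to 0.413). At matched depth, with 58 and 48 cells, the immediate-early ratio was 1.09 (0.886 to 1.35) and the ribosomal protein ratio 1.01 (0.981 to 1.04). The respiratory chain and nuclear-retained lists were then at 0.974 (0.900 to 1.05) and 0.839 (0.403 to 1.75), and within the shallow fibroblast cluster at 0.990 (0.930 to 1.05) and 2.24 (1.91 to 2.63). The last value rests mostly on cells outside the window of matched depth, since all cells in the window had under 1% Malat1. In that cluster the immediate-early ratio was 1.29 (1.12 to 1.49). The genes with the largest ratios came from single cells, since all UMIs of Igfbp5 and Msln above the limit, and 79.2% of those of Crip1, were in 1 cell with 13276 UMIs and a share of 5.15%. Msln marks mesothelium. The other named genes in this direction were Aqp1, a water channel (10.9, and 5.84 without that cell), and Cd9 (5.15). The EC marker list summed to 950 CPM in the fibroblast-like cells above the limit and 343 CPM in those below it, and its part in these values was not tested.

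AT1-like cells above the limit resembled the fibroblast-like ones in normoxia for the immediate-early, ribosomal protein and nuclear-retained lists, the last at 0.400 (0.374 to 0.427), below 1 and unlike the EC-like cells at 1.46. That value rests on few deep cells below the limit. There 34 of 39 cells had under 1% Malat1 (median 995 UMIs), 4 had 1% to 10% (9886.5) and 1 had over 10% (10574). At matched depth the nuclear-retained ratio was 49.0 (29.6 to 87.9). In that window 31 of 35 cells above the limit and all 27 below it had under 1% Malat1. Of 488 genes tested, 16 were more than 2-fold higher (3.28%) and 42 lower (8.61%). The immediate-early ratio was 0.307 (0.269 to 0.348), with 12 of 13 genes more than 2-fold lower, among them Btg2 (123 against 989 CPM) and Ier3 (522 against 2493 CPM). The ribosomal protein ratio was 1.47 (1.43 to 1.51), and the rRNA-overlapping gene Gm42418 was at 1.73 (1.66 to 1.81). Eif5b, a translation initiation factor, was at 3.76 (2.09 to 7.04), and Cyb5r3 at 3.55 (2.16 to 5.99), a gene that was also higher above the limit in EC-like cells. At matched depth the immediate-early ratio was 0.933 (0.749 to 1.17), and that of ribosomal protein genes turned to 0.933 (0.898 to 0.969).

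Pericyte-like cells above the limit, 22 against 49, had ratios of 0.446 (0.389 to 0.510) for immediate-early genes, 1.51 (1.45 to 1.57) for ribosomal protein genes and 1.35 (1.29 to 1.41) for nuclear-retained RNA. At matched depth, with 16 cells on each side, the immediate-early ratio turned to 2.19 (1.55 to 3.13), and that of ribosomal protein genes was 1.08 (1.01 to 1.15). Within the larger pericyte cluster, with 21 and 27 cells, the immediate-early ratio was 0.517 (0.446 to 0.596) and that of nuclear-retained RNA 3.04 (2.87 to 3.22). AT2-like cells differed from these classes. With 21 cells above and 7 below the limit, the immediate-early ratio was 1.20 (1.11 to 1.30), with 6 of 15 genes more than 2-fold higher and none lower, where 10.6% of the 658 genes tested were higher and 11.2% lower. The surfactant list, their own product, was at 1.42 (1.39 to 1.45), and the nuclear respiratory chain subunits were at 0.753 (0.702 to 0.807). The AT2-like cells above the limit were also the deeper ones, with a median of 14280 UMIs against 5479.

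Hypoxia and normoxia were last compared within EC-like cells above the limit, 92 against 554, beside the same ratio in low-mitochondrial cells. The immediate-early genes were lower in the hypoxia library by similar factors, 0.395 (0.362 to 0.431) above the limit and 0.378 (0.373 to 0.384) below it. The MHC class II genes were higher, at 4.403 (4.00 to 4.84) and 4.11, with Cd74, the invariant chain, at 3672 against 672 CPM above the limit. Glycolysis genes and targets of hypoxia were at 1.61 (1.44 to 1.81) and 1.69 (1.64 to 1.74). The ratio of the nuclear-retained list was 0.521 (0.505 to 0.538) above the limit and 0.733 (0.727 to 0.740) below, and that of ribosomal protein genes 1.40 (1.38 to 1.42) and 1.16 (1.15 to 1.16). The EC-like cells of the libraries lay in different clusters. Above the limit, the cluster led by Kif1c held 32 of the 92 hypoxia cells and 19 of the 554 normoxia cells, and the Malat1-rich clusters led by Lmntd1 and Milr1 held 34 and 46 normoxia cells and 2 and 1 hypoxia cells, while the largest Malat1-rich cluster, led by Gm12758, held 104 and 12. Below it, a cluster led by Ntrk2, with Cd74 among its leading genes, held 209 hypoxia and 27 normoxia cells. For the lists named so far the contrast between the libraries had the same direction above the limit as below it. The rRNA-overlapping genes went opposite ways, at 1.11 (1.08 to 1.14) above the limit and 0.933 (0.924 to 0.942) below it.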

How the data were processed

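The authors deposited, per library, a filtered matrix of UMI counts for 31053 genes, made with Cell Ranger 6.1.2 per the file headers and aligned to mm10 (GRCm38). No values of other samples were present. Counts were used as deposited. The lists and cells were chosen with earlier results of these data known. The rule for leaving unnamed any cluster in which 2 of 8 myeloid genes lead was added after the data were seen.

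Cells with 200 to 4000 genes were kept. The upper limit was the sole treatment of doublets. For clustering, each cell was brought to a total of 10000 and logarithms were taken. With 2000 variable genes per library, 30 principal components and 15 neighbours, Leiden clustering (scanpy 1.11.5, resolution 2) gave the clusters. A class needed 3 detected markers, and EC subtypes followed from their own markers.

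Ratios of summed counts per 1000000 non-mitochondrial UMIs have exact conditional binomial intervals, and shares have Clopper-Pearson intervals (scipy 1.17.1). Both cover counting error only. Genes needed 50 UMIs, and "2-fold" refers to the ratio itself. Named genes were the mitochondrial mRNAs, the list genes, and those ranked by the interval bound nearest to 1, 10 per direction in EC-like cells and 5 in other classes with at least 30 cells on each side. Genes given for another reason were chosen after their values were seen. Annotation was GENCODE vM21, and promoters were from RefSeq. The scripts were tested on simulated data.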

Additional observations from a re-analysis of the deposited data

Results flagged for a closer look

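The classes differed in direction for some lists in normoxia. The nuclear-retained RNAs were higher above the limit in EC-like cells, with a ratio of 1.46, and lower in fibroblast-like cells (0.400) and AT1-like cells (0.400). The AT1-like value rests on few cells below the limit, since 34 of those 39 had under 1% Malat1. The nuclear respiratory chain subunits were at 0.964 in EC-like cells, 1.25 in fibroblast-like cells and 1.10 in AT1-like cells. The counting intervals of these ratios lie on opposite sides of 1, but the difference between classes was not tested, since each class has 1 library per condition.
At matched depth the nuclear-retained ratios were 1.13, 0.839 (0.403 to 1.75) and 49.0 in EC-like, fibroblast-like and AT1-like cells, the last resting on 4 of 35 cells. The respiratory chain ratios were then 1.01, 0.974 (0.900 to 1.05) and 0.850 (0.768 to 0.941). At matched depth the fibroblast-like nuclear-retained value rests on 17 UMIs on each side of the limit, too few to give a direction. Within the shallow fibroblast cluster, with 70 and 63 cells, the nuclear-retained ratio was 2.24 (1.91 to 2.63). All 58 and 48 fibroblast-like cells of matched depth had under 1% Malat1. The value of 2.24 therefore rests mostly on cells outside the window, and its interval does not cover differences between cells, so it gives no direction either.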

How the results depend on the processing

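No paired analysis was possible because normoxia and hypoxia were 1 library apiece, with no replicate numbers and none to leave out. A limit of 10% in place of 5% put 6.71% of normoxia and 2.14% of hypoxia cells above it. The EC-like share of the high-mitochondrial cells in normoxia was 46.7% at resolution 1, 60.8% at resolution 3, 62.7% with each library clustered alone and 59.8% with classes set per cell from markers. In hypoxia it was 73.8% at resolution 1, 66.4% from markers and 70.6% above 10%.

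The following ratios in EC-like cells are given per 1000000 of all UMIs, with median-ratio scaling, as the mean over cells, at matched depth, for cells above 10%, within clusters and with classes from markers, where they moved. Nuclear-retained RNA in normoxia was at 1.38, 1.47, 1.30, 1.13, 1.99, 1.15 and 1.42. In hypoxia it was below 1 in the first 4 (0.968, 0.908, 0.924 and 0.899) and within the 1 cluster with enough cells (0.244), and at 1.42 above 10% and 1.17 from markers, so its direction there is not settled. Ribosomal protein genes were at 1.33, 1.43, 1.36, 1.17, 1.14, 1.12 and 1.49 in normoxia and at 1.59, 1.495, 1.51, 1.35, 1.51, 1.18 and 1.59 in hypoxia. Respiratory chain subunits in normoxia were at 0.915 per 1000000 of all UMIs, 1.01 as the mean over cells, at matched depth and within clusters, and 0.760 above 10%. In hypoxia they were at 0.966 per 1000000 of all UMIs, 0.905 with median-ratio scaling, 0.826 above 10% and 0.938 within clusters. Immediate-early genes in normoxia were at 0.379 per 1000000 of all UMIs, 0.436 as the mean over cells, 0.776 at matched depth, 0.302 above 10% and 0.816 within clusters. In hypoxia they were at 0.367 with median-ratio scaling, 0.494 as the mean over cells, 0.792 at matched depth, 0.335 above 10% and 1.35 within the 1 cluster, which reverses the direction. The causes of these shifts were not tested.

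With at least 100 UMIs per gene, fewer genes were tested, and 57 were more than 2-fold higher and 151 lower in normoxia, and 97 and 573 in hypoxia. At matched depth the counts were 21 and 15, and 22 and 84. Median-ratio scaling gave 114 higher and 1440 lower genes in hypoxia, against 216 and 1133 in the main setting.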
